A study of Homo sapiens with 36 samples.

Results

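The cytosolic ribosomal proteins are the proteins of the small (RPS) and large (RPL) subunits of the ribosome in the cytosol. Their genes were taken by symbol: RPL or RPS followed by a number, with an A or X where one belongs, plus the stalk genes RPLP0, RPLP1 and RPLP2 and RPSA. This gave 77 of 13534 measured genes, 46 for the large subunit and 31 for the small subunit. All 77 were present in both deposited tables, which held 13364 and 13066 genes. The rule leaves out core proteins such as FAU and RACK1, whose symbols do not match it; these 2 are given beside the members where their values bear on them. RPL17 had 1 to 11 and 0 to 11 reads per library in the 2 tables, so its values carry no information and no change is given for it. Every other member had at least 100 reads in every library, except RPL36A, with 53 to 273 reads in the second table. Together the members took 10.0 to 17.5% of all gene reads in the libraries of the first table.

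The libraries came from 501mel and IGR37, established human melanoma cell lines, in which stearoyl-CoA desaturase (SCD), the enzyme that places a double bond into saturated fatty acids, was inhibited or depleted. Each line had 6 groups of 3 libraries, and all cells were taken at 48 h. The groups were DMSO, an SCD inhibitor labelled A93 at 1 uM (SCDi), 2 groups of control siRNA (siCTR and siCTR_1) and 2 SCD siRNAs (siSCD_1 and siSCD_2), with siRNA at 20 nM. DMSO, SCDi, siCTR and siSCD_2 were deposited in the first table (24 libraries), and siCTR_1 and siSCD_1 in the second (12 libraries). Each treatment was therefore compared with the control of its own table, and the 6 treatment comparisons share no library. Nothing in the labels tells if the 3 libraries of a group came from independent cultures; the p-values therefore rest on the spread among libraries, which may be technical. Gene reads per library ran from 4078450 to 6685898 in the first table and from 2402788 to 7483010 in the second. The 3 libraries of 501mel with siSCD_1 were shallow (2897808 to 3285909). So were libraries 2 and 3 of IGR37 with siSCD_1 (2402788 and 3178366), library 2 being the shallowest of all. SCD mRNA, the target, fell by 2.85 (501mel) and 2.67 (IGR37) on the log2 scale with siSCD_1, and by 4.33 and 4.15 with siSCD_2. With SCDi, which acts on the protein, SCD mRNA differed by 0.29 in 501mel (adjusted p = 0.573) and rose by 0.63 in IGR37. As a check of the lines, 7 pigment cell markers summed to 3133 to 7088 reads per 1e6 gene reads (CPM), against 2.23 to 21.0 for 6 fibroblast markers, 0 to 5.77 for 4 epithelial markers and 0 to 1.89 for 6 blood and endothelial markers.

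Ribosomal protein mRNAs are among the most abundant messages of a growing cell, and their products are needed in equal numbers, since each ribosome holds 1 copy of nearly all of them. Most start with a cytosine followed by an unbroken run of pyrimidines, the 5′ terminal oligopyrimidine (TOP) motif, through which mTORC1 and the RNA-binding protein LARP1 set how much of the message is translated and stored. Surplus ribosomal proteins are degraded, and RPL5 and RPL11, when free of the ribosome, bind the ubiquitin ligase MDM2. The measurements here are of mRNA 3′ ends and say nothing of translation.

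The start sequences show the feature by which these mRNAs are known as a class. RefSeq promoter sequences (build GRCh38.p14) were matched for 62 of 77 members. A run of at least 5 pyrimidines opening with C within 5 bases of the annotated start, on the gene's own strand, was found in 50 of these 62 (80.6%), against 22.4% of 9895 other measured genes. Each run was counted from its first C within those 5 bases, so pyrimidines before that C were left out. By this count the runs were 5 to 22 bases long, with a median of 11. The 8 starts below belong to the members that the results turn on, and each line gives 30 bases, of which 10 lie before the annotated start, with the run in capitals. RPL3, RPL34 and RPL13A were among the largest rises with siSCD_2, RPL26 had the largest rise with SCDi in IGR37, and RPL22 the largest rise with siSCD_1 in 501mel. RPS3 had the largest fall with siSCD_1 in 501mel, RPL39 was the only member that fell with siSCD_2, and RPS6 is the S6 kinase substrate.
RPL3, chr22:39319604-39319633, minus strand: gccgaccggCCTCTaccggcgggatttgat
RPL34, chr4:108620566-108620595, plus strand: cttttttCTTCCTCTTCCggggacgttgtc
RPL13A, chr19:49487598-49487627, plus strand: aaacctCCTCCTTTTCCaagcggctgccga
RPL26, chr17:8383174-8383203, minus strand: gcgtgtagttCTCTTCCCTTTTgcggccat
RPL22, chr1:6199576-6199605, minus strand: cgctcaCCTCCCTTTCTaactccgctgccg
RPS3, chr11:75399508-75399537, plus strand: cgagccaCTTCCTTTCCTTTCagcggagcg
RPL39, chrX:119791611-119791640, minus strand: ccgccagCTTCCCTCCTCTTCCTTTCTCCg
RPS6, chr9:19380217-19380246, minus strand: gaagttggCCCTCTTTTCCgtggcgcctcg
These 8 were chosen for their results and all hold a run, by this count the longest of the 50 in RPL39. In RPL34, RPL13A and RPL26 the letters just before the capitals are pyrimidines too. The same holds for RPL7A, with a run of 21 by this count, so the order of whole tracts may differ. A run was not shared by all members with such changes: RPS26, with the second largest fall with siSCD_1 in 501mel, and RPS15, which fell with SCDi in IGR37, had an entry without one. The 12 members with an entry but no such run were RPL10, RPL13, RPL15, RPL17, RPL27, RPL6, RPL9, RPS15, RPS26, RPS27A, RPS29 and RPS4X. RPL5, RPL23, RPL23A, RPL30, RPL37, RPS2 and RPS15A were among the members without a RefSeq entry. Over the window from 250 before to 50 after the start, on either strand, CCGGAAG, a word bound by ETS factors, was present in 33.9% of member promoters and 19.0% of the other measured genes. CACGTG, the E-box that MITF and MYC bind, was present in 4.84% and 10.4%, TCATGTG, an M-box word of MITF targets, in 0% and 1.77%, and TATAAA in 8.06% and 5.33%. A match is only a description of the letters in this window.

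Together the 77 members took a larger share of all gene reads with siSCD_2 than with siCTR. In 501mel it was 11.9, 12.9 and 13.2% with siCTR and 17.5, 16.5 and 16.5% with siSCD_2 (12.7 ± 0.67 against 16.8 ± 0.60, mean ± SD, n = 3), 1.33 times the control share. In IGR37 it was 11.0, 11.3 and 11.4% with siCTR and 14.8, 13.8 and 16.5% with siSCD_2, which is 1.34 times. The siSCD_2 libraries were above all of their controls in both lines, and those of IGR37 were the most spread.

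The share was 13.6 ± 0.35% with DMSO and 14.9 ± 0.19% with SCDi in 501mel, and 10.3 ± 0.52 and 12.3 ± 0.33% in IGR37, again without overlap. The order was the other way with siSCD_1 in 501mel, with 14.1 ± 0.25% for siCTR_1 and 12.3 ± 0.29% for siSCD_1, without overlap, while in IGR37 it was 11.2 ± 0.20% with siCTR_1 and 10.9 ± 0.28% with siSCD_1, with overlapping libraries. Exact two-sided permutation tests gave p = 0.3 for siSCD_1 in IGR37 and p = 0.1, the smallest that 3 against 3 libraries can give, in the other 5 of these 6 comparisons. The plot of these shares by library shows the opposite order of treated and control libraries for the 2 siRNAs in 501mel. Pseudogenes named after members (16 and 14 in the tables) held 0.028 to 0.070% of gene reads. Reads shared with copies that are not among these cannot be seen here.

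**Figure D1:**
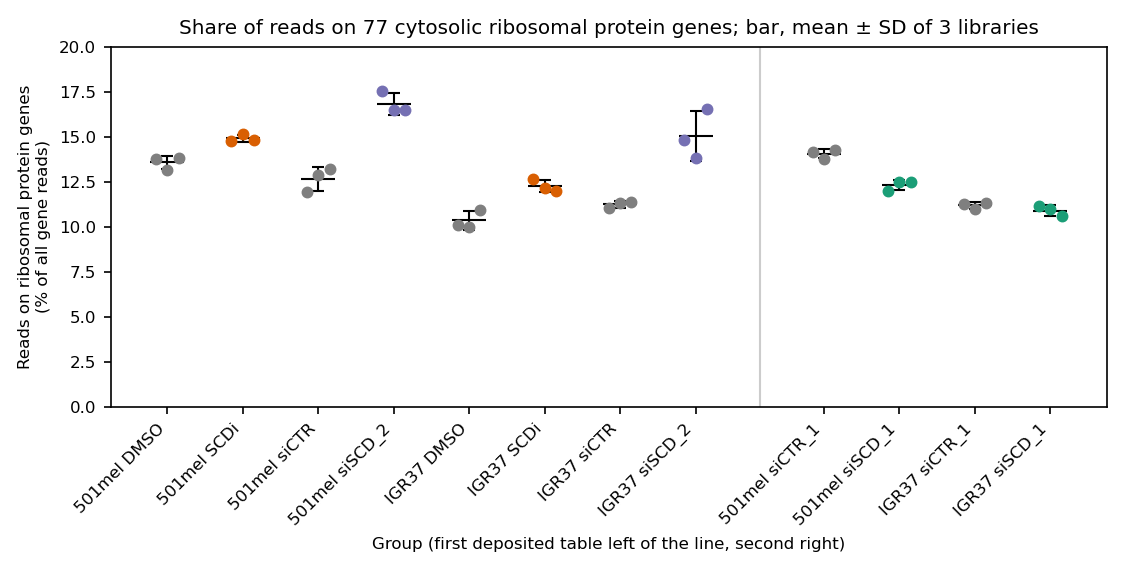
Percent of all gene reads on the 77 ribosomal protein genes (y axis) in each library (points) of each group (x axis), with bars for the mean ± SD of 3 libraries; the 2 tables are divided by the grey line. With siSCD_2 the libraries lie between 13.8 and 17.5%, above their siCTR controls, whereas with siSCD_1 in 501mel they lie at 12.5% or less, below siCTR_1.

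Changes are given below as log2 fold changes ± SE from limma on the deposited log2 CPM values, and a member passed at a Benjamini-Hochberg adjusted p under 0.05 over all genes of its table. Levels are log2 CPM, listed in the order of the library labels. The changes are relative to the other genes of a library, as the deposited scaling sets them. Scaling instead to the spike-in reads, an alternative chosen after seeing the data, shifted the median of all genes by 0.36 and -0.10 (SCDi in 501mel and IGR37), -0.23 and -0.25 (siSCD_1) and -0.63 and -0.51 (siSCD_2). The median member then changed by 0.55 and 0.08, -0.60 and -0.35, and -0.16 and 0.00, so the rise with siSCD_2 and the fall of other genes on that scale cannot be separated. Spike-in reads were 5.16 to 6.96% of reads with siSCD_2 in 501mel against 3.81 to 5.08% with siCTR, and 5.13 to 5.71% with siSCD_1 against 3.76 to 4.29% with siCTR_1. Fewer cells and less mRNA per cell cannot be told apart in such bulk libraries.

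Most members rose with siSCD_2 in both lines. In 501mel 60 of 77 rose and 0 fell, where 18.3% of all genes rose and 19.5% fell, and the median member change was 0.47 against 0.00 for all genes. In IGR37 58 rose and 1 fell (RPL39), against 23.2 and 22.7% of all genes, with a median of 0.51 against 0.00. Of these, 52 (67.5% of the members) rose in both lines, against 10.4% of all genes. The rises were mostly moderate: 33 and 40 of them exceeded 1.41-fold, and 5 and 10 exceeded 2-fold. In the small subunit 23 and 21 of 31 rose, and in the large subunit 37 and 37 of 46; the difference between the subunits was not tested.

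RPL3, a large subunit protein at the peptidyl transferase centre, stood at 8.01, 8.56 and 8.82 with siCTR and at 9.91, 9.72 and 9.75 with siSCD_2 in 501mel (1.33 ± 0.19, a 2.51-fold rise, adjusted p = 3.72e-06). The groups were well apart, although control library 1 lay below the other 2. In IGR37 the levels of RPL3 were 8.47, 8.70 and 8.61 against 9.82, 8.97 and 9.95 (0.99 ± 0.19, adjusted p = 1.20e-04).

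RPL34, also of the large subunit, rose from 9.95, 10.41 and 10.56 to 11.51, 11.46 and 11.51 in 501mel (1.19 ± 0.18, adjusted p = 1.26e-05). In IGR37 it rose from 9.40, 9.44 and 9.48 to 10.97, 10.17 and 11.40, the largest change of any member (1.41 ± 0.18, 2.65-fold, adjusted p = 8.51e-07). The treated libraries of IGR37 were spread over more than 1 log2 unit, with library 2 the lowest, yet all lay above the controls.

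RPL13A, the subunit of the interferon-gamma translation silencing complex, rose by 1.10 ± 0.16 in 501mel and 1.27 ± 0.16 in IGR37 (adjusted p = 6.05e-06 and 5.73e-07). RPS15A of the small subunit rose by 1.26 ± 0.15 and 0.94 ± 0.15, RPS7, which also binds MDM2, by 0.79 ± 0.23 and 1.27 ± 0.23, and RPL26, a large subunit protein near the exit of the tunnel, by 0.83 ± 0.21 and 1.23 ± 0.21. In IGR37 library 2 was the siSCD_2 library closest to the controls for RPL3, RPL34, RPL13A, RPS15A, RPS7 and RPL26, and it was also the shallowest of the 3 (4078450 reads) and the one with the least SCD mRNA (5.32 against 6.52 and 6.09). Without it 57 members rose and 3 fell.

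RPL39, a small protein lining the exit tunnel, was the exception. In IGR37 it stood at 7.38, 7.20 and 7.18 with siCTR and at 6.73, 7.15 and 6.03 with siSCD_2 (-0.62 ± 0.17, adjusted p = 0.0045), narrowly without overlap. Without the unnumbered library, which was the lowest, the change was -0.31 (adjusted p = 0.0617) and no member fell. In 501mel RPL39 differed by -0.24 ± 0.17 (adjusted p = 0.303), with overlapping groups. Among the members that passed in neither line with siSCD_2 were RPL36A, RPL7, RPLP1, RPS15, RPS27, RPS29 and RPS9.

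**Figure D2:**
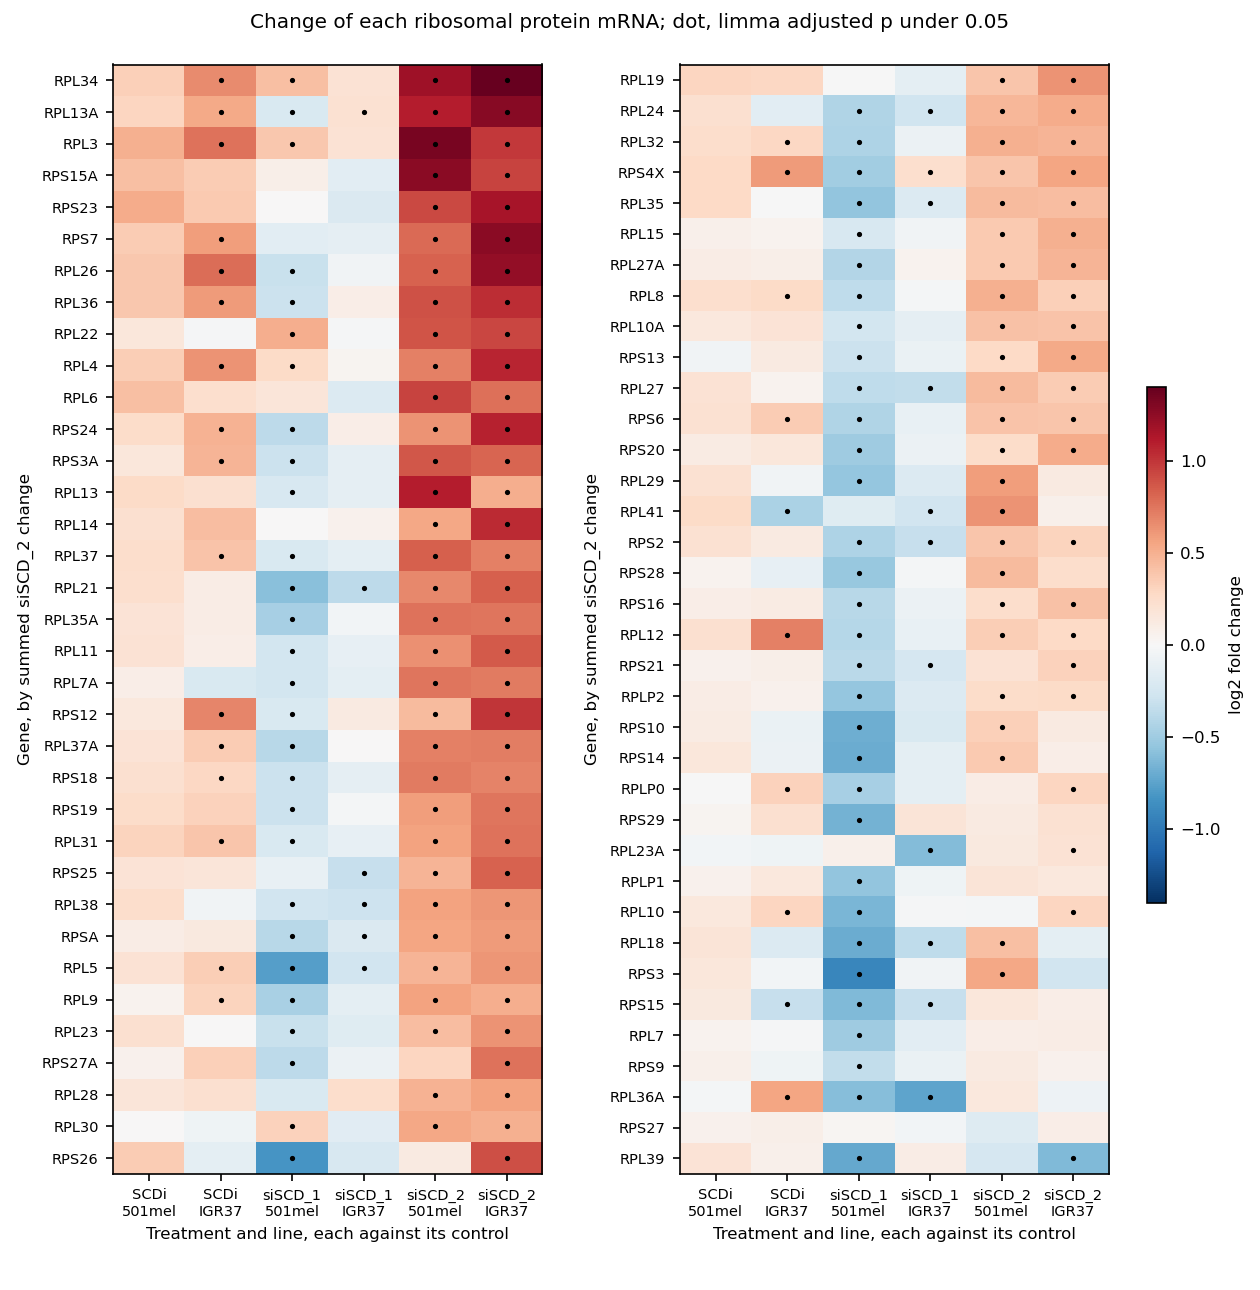
log2 fold change (colour) of 71 of the 77 ribosomal protein mRNAs (listed in 2 panels, ordered by their summed siSCD_2 change) in the 6 treatment comparisons (columns); dots mark an adjusted p under 0.05 in limma. The siSCD_2 columns are red for nearly all genes, with 57 and 56 rises among those shown, while the siSCD_1 column of 501mel is blue for 55 falls, and RPL22, RPL3, RPL30, RPL34 and RPL4 are red in it.

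Most members fell with siSCD_1 in 501mel. Here 59 of 77 fell and 5 rose, where 22% of all genes fell and 20.9% rose, and the median member change was -0.35 against 0.01 for all genes. All 26 small subunit members that passed fell, as did 33 large subunit members. The falls were smaller than the siSCD_2 rises: 18 exceeded 1.41-fold and 0 exceeded 2-fold. This result depends on the scaling: after quantile normalisation, which forces equal distributions on all libraries, 17 fell and 11 rose, and the median member change was -0.03.

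RPS3, a protein of the mRNA entry channel that also acts in DNA repair, stood at 12.60, 12.21 and 12.32 with siCTR_1 and at 11.53, 11.43 and 11.42 with siSCD_1 (-0.92 ± 0.16, adjusted p = 1.98e-04). No treated library came near a control, and the fall was to 0.529 of the control level. RPS26, at the mRNA exit, fell from 7.56, 7.76 and 7.77 to 6.72, 6.91 and 6.97 (-0.83 ± 0.13, adjusted p = 6.28e-05).

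RPL5, a protein of the 5S particle, fell from 11.19, 11.15 and 11.11 to 10.35, 10.36 and 10.44 (-0.77 ± 0.06, adjusted p = 5.88e-08), with the tightest groups of the 4 largest falls. RPL39 fell from 6.66, 6.23 and 6.40 to 5.89, 5.35 and 5.90 (-0.71 ± 0.18, adjusted p = 0.00376).

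The 5 members that rose were all of the large subunit and were the 5 that also rose with siSCD_2 in both lines: RPL22, RPL34, RPL3, RPL30 and RPL4. RPL22, an RNA-binding protein that is dispensable for ribosome assembly, rose from 7.88, 7.82 and 7.87 to 8.23, 8.36 and 8.50 (0.51 ± 0.08, adjusted p = 9.98e-05). RPL34 rose by 0.43 ± 0.11, RPL3 by 0.38 ± 0.08, RPL30 by 0.32 ± 0.06 and RPL4 by 0.27 ± 0.10. Of the 52 members that rose with siSCD_2 in both lines, 39 (75%) fell with siSCD_1 in 501mel, against 15.1% of all genes that rose in this way. They were 66.1% of the 59 members that fell, against 7.26% of all genes that fell. Both shares were near the members' own rates: 59 of all 77 fell with siSCD_1 in 501mel, and 67.5% rose with siSCD_2 in both lines.

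In IGR37 fewer members passed with siSCD_1: 17 of 77 fell and 2 rose, where 19.4% of all genes fell and 16.7% rose, so the shares called were near or below those of all genes, and the median member change was -0.12 against -0.01. The largest fall was in RPL36A, from 5.30, 5.18 and 5.14 to 4.51, 4.40 and 4.51 (-0.73 ± 0.11, adjusted p = 8.72e-05), without overlap, in a member with few reads. RPL23A differed most in library 2, the shallowest of all libraries (2402788 reads): it stood at 9.75, 8.95 and 9.96 against 10.23, 10.08 and 10.17 (-0.61 ± 0.17, adjusted p = 0.0123). RPL21 fell by 0.37 (SE 0.07, adjusted p = 3.59e-04) and RPL18 by 0.35 (SE 0.09, adjusted p = 0.00522).

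RPS4X, encoded on the X chromosome, and RPL13A rose by 0.23 ± 0.07 and 0.21 ± 0.07 (adjusted p = 0.0193 and 0.0245), and both had fallen in 501mel with the same siRNA, by 0.49 and 0.21. The adjusted p of RPS4X was 0.0733 without siSCD_1 library 2, and 0.0588 and 0.0586 without siCTR_1 libraries 2 and 3. That of RPL13A was 0.126 without siCTR_1 library 2 and 0.0639 without siSCD_1 library 1. With siSCD_1, 13 members fell in both lines. They were 22% of the 59 that fell in 501mel, against 50.2% of all genes that fell there, and 76.5% of the 17 that fell in IGR37, against 57.1%. Both shares were near the members' own rates: 17 of all 77 fell in IGR37 and 59 in 501mel. Among the 13 were RPL18, RPL21, RPL24, RPL27, RPL35, RPL36A, RPL38, RPL5, RPS15, RPS2, RPS21 and RPSA.

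A part of the members rose with SCDi in IGR37. There 26 of 77 rose and 2 fell, where 20.9% of all genes rose and 23.1% fell, with a median of 0.17 against 0.00. RPL26 rose from 8.54, 8.67 and 8.93 to 9.65, 9.49 and 9.33 (0.78 ± 0.21, 1.71-fold, adjusted p = 0.00348) and RPL3 from 8.36, 8.20 and 8.34 to 9.30, 8.96 and 8.92 (0.76 ± 0.19, adjusted p = 0.00191). RPL12, a stalk base protein, rose from 8.76, 8.75 and 8.88 to 9.50, 9.49 and 9.50 (0.70 ± 0.07, adjusted p = 1.59e-08). All of these groups were apart.

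RPS12 rose by 0.68 ± 0.15 (adjusted p = 5.52e-04). The falls were in RPL41, the smallest ribosomal protein, from 7.64, 7.19 and 7.09 to 6.94, 6.82 and 6.83 (-0.44 ± 0.16, adjusted p = 0.0299), and in RPS15, from 10.22, 10.05 and 10.28 to 9.94, 9.79 and 9.87 (-0.32 ± 0.09, adjusted p = 0.00392). The fall of RPL41 was -0.28 without DMSO library 1 (adjusted p = 0.216), and the adjusted p was 0.0783 and 0.0746 without SCDi libraries 2 and 3. Of the 26 members that rose with SCDi in IGR37, 23 (88.5%) also rose with siSCD_2 in both lines, against 20.9% of all genes that rose with SCDi there. The rate over all 77 members was already 67.5%. Read the other way, these 23 were 44.2% of the 52 members that rose with siSCD_2 in both lines, near the 41.9% of all genes that did so.

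In 501mel no member passed with SCDi, in a comparison where only 0.232% of all genes rose and 0.0599% fell. At an unadjusted p under 0.05, 25 members were higher and 0 lower, against 5.25 and 4.56% of all genes, and limma voom on the recovered reads also called 0. The member values nevertheless leaned upward: 72 of 77 changes were positive, with a median of 0.19 against 0.00, and 46 members had all SCDi libraries above all DMSO libraries, against 9.61% of all genes, while 0 members had all of them below, against 8.9%. RPL3 stood at 9.08, 8.63 and 9.12 with DMSO and 9.39, 9.49 and 9.44 with SCDi (0.50 ± 0.19, adjusted p = 0.341), and RPS23, which holds the decoding site and was chosen after its values were seen as the member with the largest difference, at 9.01, 8.54 and 9.0 against 9.35, 9.33 and 9.43 (0.52 ± 0.21, adjusted p = 0.388). DMSO library 2 was the lowest control for both.

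**Figure D3:**
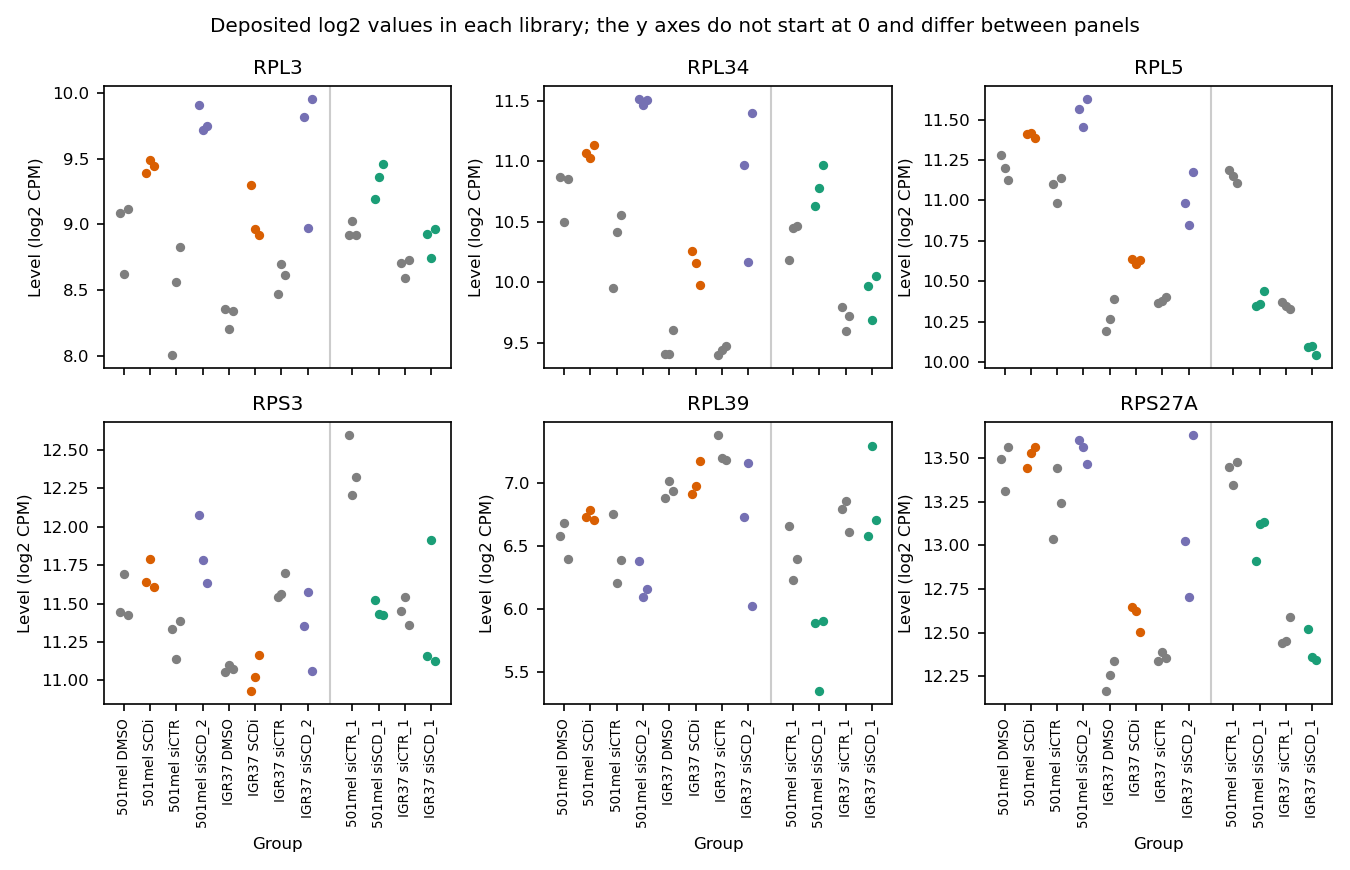
Deposited log2 CPM (y axis) of RPL3, RPL34, RPL5, RPS3, RPL39 and RPS27A in each library (points) of the 12 groups (x axis; controls grey, SCDi orange, siSCD_1 green, siSCD_2 purple); axes differ between panels and do not start at 0. RPL3 and RPL34 are above their controls with both siRNAs in 501mel, whereas RPL5 is above with siSCD_2 and below with siSCD_1.

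The members were next read by their place in the ribosome, a grouping made after the values were seen. The stalk proteins RPLP0, RPLP1 and RPLP2, which recruit the translation factors, all fell with siSCD_1 in 501mel, by 0.46, 0.55 and 0.54. RPLP0 stood at 11.83, 11.73 and 11.82 with siCTR_1 and at 11.34, 11.35 and 11.29 with siSCD_1. Their values with siSCD_2 were below the median member: RPLP2 rose by 0.26 ± 0.08 and 0.27 ± 0.08 in 501mel and IGR37 (adjusted p = 0.0158 and 0.0103), RPLP0 passed in IGR37 (0.30 ± 0.07) and not in 501mel (0.10 ± 0.07, adjusted p of the difference between lines = 0.17), and RPLP1 passed in neither line (0.18 and 0.15). The rise of RPLP2 was 0.19 in 501mel without siSCD_2 library 1 (adjusted p = 0.0980) and 0.23 in IGR37 without siCTR library 1 (adjusted p = 0.0547). With SCDi RPLP0 rose in IGR37, from 10.66, 10.64 and 10.72 to 11.02, 10.99 and 10.98 (0.33 ± 0.07).

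The 5S particle proteins RPL5 and RPL11 rose together with siSCD_2. RPL11 rose from 10.62, 10.82 and 10.84 to 11.49, 11.33 and 11.39 in 501mel (0.64 ± 0.12) and from 10.35, 10.47 and 10.37 to 11.25, 10.84 and 11.68 in IGR37 (0.86 ± 0.12), and RPL5 by 0.47 ± 0.08 and 0.62 ± 0.08. With siSCD_1 in 501mel RPL11 fell by 0.26, less than the 0.77 of RPL5, and in IGR37 RPL5 fell by 0.27 while RPL11 differed by -0.12 (adjusted p = 0.171).

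RPL10, which with RPL3 shapes the catalytic centre, did not follow RPL3 with the 2 siRNAs in 501mel. It differed by -0.03 ± 0.09 with siSCD_2 in 501mel (adjusted p = 0.854) and fell from 9.83, 9.64 and 9.63 to 9.10, 9.13 and 8.96 with siSCD_1 (-0.64 ± 0.09). In IGR37 both rose: RPL10 by 0.30 with siSCD_2 and 0.30 with SCDi, where RPL3 rose by 0.99 and 0.76. RPL4, which lines the exit tunnel with RPL39, rose with siSCD_2 by 0.70 ± 0.14 in 501mel and 1.07 ± 0.14 in IGR37, where RPL39 was at -0.24 and -0.62.

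RPS6, the S6 kinase substrate, rose with siSCD_2 by 0.40 ± 0.09 and 0.39 ± 0.09, rose with SCDi in IGR37 by 0.35 ± 0.09 and fell with siSCD_1 in 501mel by 0.42 (SE 0.06). RPS27A, made as a fusion with ubiquitin, fell with siSCD_1 in 501mel by 0.37 and rose with siSCD_2 in IGR37 from 12.34, 12.39 and 12.35 to 13.02, 12.71 and 13.63 (0.76 ± 0.15, adjusted p = 1.62e-04). In 501mel its siSCD_2 change was 0.30 ± 0.15 (adjusted p = 0.113). RPSA, also known as the laminin receptor, rose with siSCD_2 by 0.55 ± 0.14 and 0.60 ± 0.14 and fell with siSCD_1 by 0.39 and 0.20. The fall in IGR37 lost its call without any 1 of 5 of the 6 libraries compared: the adjusted p was 0.0887, 0.0524 and 0.0928 without siCTR_1 libraries 1, 2 and 3, and 0.0840 and 0.0544 without siSCD_1 libraries 2 and 3. RPS27 passed in none of the 6 comparisons, with changes between -0.18 and 0.09, and its groups overlapped in each.

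The 2 lines differed most in their response to siSCD_1. The effect in IGR37 was above that in 501mel for 35 of 77 members and below it for 2, where 10% of all genes were above and 10.3% below, with a median difference of 0.26. The count of 35 was 19 without library 1 of 501mel siCTR_1, 23 without library 1 and 19 without library 2 of IGR37 siCTR_1, and 8 without a variance trend. After quantile normalisation the direction turned, with 5 higher and 12 lower effects and a median difference of -0.04. RPS3 differed by 0.87 ± 0.22 (adjusted p = 0.0126): in IGR37 it stood at 11.45, 11.54 and 11.36 with siCTR_1 and at 11.16, 11.91 and 11.13 with siSCD_1, with no fall. RPS29 differed by 0.84 ± 0.13, with levels of 13.16, 13.08 and 13.17 against 12.45, 12.54 and 12.44 in 501mel, and 12.05, 11.84 and 12.04 against 12.12, 12.38 and 11.99 in IGR37. The 2 lower effects were RPL22 (-0.52 ± 0.11) and RPL30 (-0.49 ± 0.09), which had risen with this siRNA in 501mel and did not pass in IGR37 (-0.01 and -0.16).

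For siSCD_2, 0 members had a higher effect in IGR37 and 5 a lower one (RPL13, RPL18, RPL29 and RPS3 among them), against 11.6 and 9.47% of all genes. At an unadjusted p under 0.05, 8 were higher, against 18.1% of all genes, limma voom called 2, and without library 2 of IGR37 siSCD_2 the count was 17. RPS3 had the largest difference (-0.82 ± 0.17, adjusted p = 0.00101): it rose in 501mel, from 11.34, 11.14 and 11.39 to 12.08, 11.78 and 11.64, and in IGR37 stood at 11.54, 11.56 and 11.70 against 11.35, 11.58 and 11.06. RPL13 rose in both, by 1.10 ± 0.11 in 501mel and 0.51 ± 0.11 in IGR37. For SCDi, 4 effects were higher in IGR37 (RPL12, RPL36A and RPLP0 among them) and 3 lower (RPL24, RPL41 and RPS15), against 12.3 and 15.3% of all genes. RPL36A, at 4.71, 4.99 and 4.81 with DMSO and 5.32, 5.42 and 5.42 with SCDi in IGR37, was at 5.08, 4.70 and 4.78 against 4.84, 4.83 and 4.82 in 501mel.

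**Figure D4:**
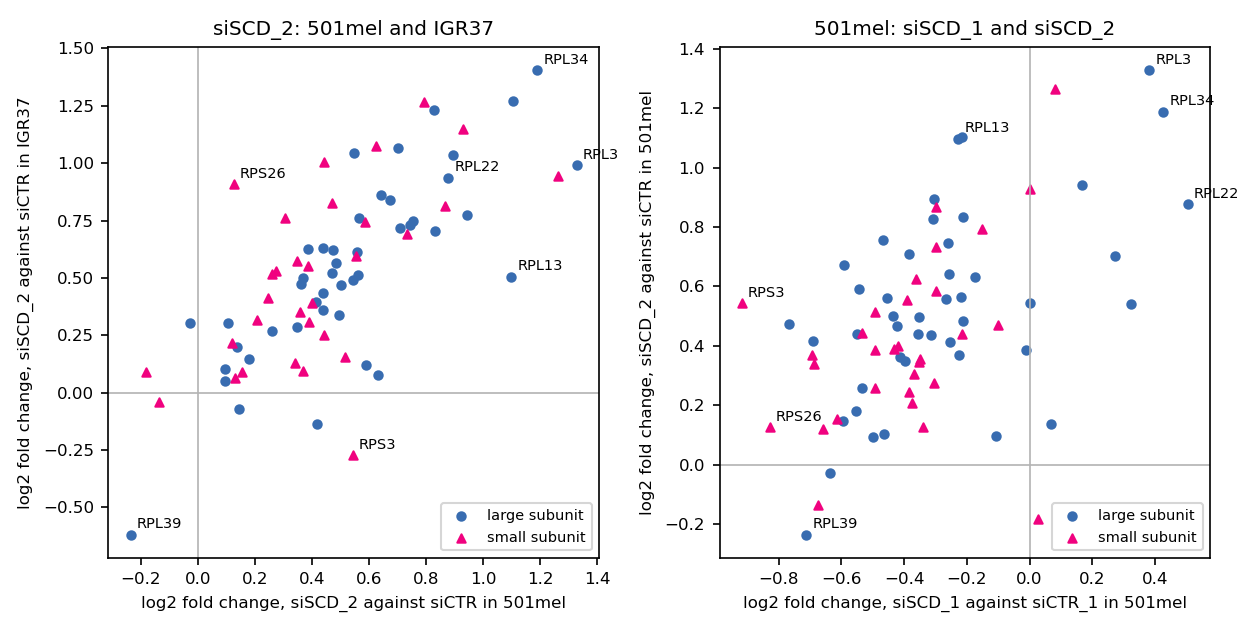
log2 fold change of 76 members (points; large subunit circles, small subunit triangles) with siSCD_2 in IGR37 against 501mel (left) and with siSCD_2 against siSCD_1 in 501mel (right). In the right panel most points lie above 0 on the y axis and below 0 on the x axis, with RPL3, RPL34 and RPL22 at the upper right and RPS3, RPS26 and RPL39 at the left.

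The 2 siRNAs came with different controls in different tables, so siRNA, control and table cannot be told apart. Although many members of 501mel changed in opposite directions in the siSCD_1 and siSCD_2 comparisons, the order of the changes was partly shared. Across 76 members, the siSCD_2 changes of the 2 lines had a Pearson r of 0.71, the siSCD_1 and siSCD_2 changes in 501mel 0.53, and the SCDi and siSCD_2 changes in 501mel 0.69. These are descriptions across genes that share libraries and depth. Of the 5 largest siSCD_2 changes in 501mel, RPL3 and RPL34 also rose with siSCD_1 there, RPS15A did not pass (0.08), and RPL13A and RPL13 fell (-0.21 and -0.23). RPL30 and RPL4, which rose with siSCD_1, were 31st and 18th of 76 with siSCD_2. RPL39 was the lowest of 76 with siSCD_2 and 73rd with siSCD_1.

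The run of pyrimidines at the start was present in members that rose and in members that fell. With siSCD_2 the median change of the 50 members with a run was 0.52 in 501mel and 0.58 in IGR37, against 0.37 and 0.51 for 11 measured members without one. With siSCD_1 in 501mel the medians were -0.33 and -0.46. The 27 members that host snoRNAs in their introns had medians of 0.44 and 0.52 with siSCD_2, against 0.47 and 0.51 for the 49 that host none. Spearman correlations of the siSCD_2 change with mRNA length were 0.15 and 0.11, and with the control level -0.12 and -0.14.

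In the control groups, more members were lower than higher in IGR37, and those that were lower made up the majority of the 77 under DMSO and siCTR_1 but not under siCTR. Under DMSO 47 of 77 were lower in IGR37 and 10 higher, where 29.7% of all genes were lower and 31.1% higher. Under siCTR the counts were 32 and 20 (30.4 and 32.1% of all genes), and under siCTR_1 42 and 8 (29.2 and 31.1%). The median member difference was -0.45 under DMSO, -0.08 under siCTR and -0.28 under siCTR_1, against 0.02, 0.03 and 0.03 for all genes. Under siCTR it was -0.17 without library 1 and -0.03 without library 3 of 501mel. In all 3 comparisons 31 members were lower and 6 higher (RPL15, RPL29, RPL30, RPL32 and RPL7 among them), 40.3 and 7.79% of the members against 17.5 and 18.9% of the genes in both tables.

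RPL34 stood at 10.87, 10.50 and 10.86 in 501mel and 9.41, 9.41 and 9.61 in IGR37 under DMSO (-1.27 ± 0.18, adjusted p = 1.80e-06). RPS27A was lower by -1.20 ± 0.15, -0.88 ± 0.15 and -0.93 ± 0.08 under DMSO, siCTR and siCTR_1, and RPS12 by -1.11 ± 0.15, -0.94 ± 0.15 and -1.0 ± 0.08. RPS29 was lower by -1.20 ± 0.13, -0.70 ± 0.13 and -1.16 ± 0.09, and RPS24, a small subunit protein needed for 18S rRNA maturation, by -0.88, -0.87 and -1.09. RPS7 (-1.23 ± 0.23) and RPL6 (-1.21 ± 0.20) were among the 4 lowest under DMSO, RPS26 (-0.87 ± 0.21) under siCTR and RPS18 under siCTR_1.

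RPL30 was the most consistently higher in IGR37, at 10.57, 10.69 and 10.53 against 9.95, 9.98 and 10.03 under DMSO (0.61 ± 0.07), and by 0.78 ± 0.07 and 0.79 ± 0.06 under the control siRNAs. RPL29 was higher by 0.57 ± 0.09, 0.77 ± 0.09 and 0.56 ± 0.08 and RPL15 by 0.45 ± 0.06, 0.50 ± 0.06 and 0.42 ± 0.06. RPL10 was higher under DMSO (0.41 ± 0.09) and RPL14 under siCTR_1 (0.43 ± 0.11). Some values were unlike under the different controls: RPL13 was 0.83 ± 0.11 higher under siCTR and -0.07 ± 0.06 under siCTR_1, RPL39 0.81 ± 0.17 and 0.33 ± 0.18, RPL36A 0.82 ± 0.12 and 0.22 ± 0.11, and RPS3 was higher by 0.31 ± 0.12 under siCTR and lower by -0.93 ± 0.16 under siCTR_1. The control groups lay in separately normalised tables, and the differences between them were not tested.

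Several paralogues and ribosomal proteins outside the symbol rule moved apart from the members. RPS27L, a paralogue of RPS27, fell in all 4 siRNA comparisons while RPS27 passed in none: by 0.57 and 0.97 with siSCD_1 and by 0.55 and 0.47 with siSCD_2 in 501mel and IGR37. With siSCD_1 in IGR37 its levels were 7.58, 7.57 and 7.44 against 6.80, 6.46 and 6.41. RPL39L, a paralogue of RPL39 known from the testis, fell with siSCD_2 from 5.16, 4.91 and 5.13 to 3.76, 4.0 and 3.52 in 501mel (-1.31 ± 0.16) and from 6.16, 5.77 and 5.73 to 3.96, 4.48 and 3.76 in IGR37 (-1.82 ± 0.16, adjusted p = 1.42e-09), larger falls than those of any member.

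RPL36AL rose with siSCD_2 (0.50 ± 0.18 and 1.00 ± 0.18), while RPL36A was at 0.15 and -0.07. With siSCD_1 in IGR37 RPL36AL rose by 0.31 ± 0.10 where RPL36A fell by 0.73. RPL7L1, which acts in assembly of the large subunit, rose by 1.71 ± 0.20 with siSCD_2 in 501mel and by 1.27 ± 0.20 with SCDi in IGR37, and RPL7 was at 0.09 and -0.02 in these comparisons (neither passed). RPL26L1 fell with SCDi in IGR37 by 0.60, where RPL26 rose by 0.78, and with siSCD_1 by 0.75 and 0.72. RPL22L1 rose with SCDi in IGR37 (0.59 ± 0.09) and with siSCD_1 in 501mel (0.33 ± 0.10), and with siSCD_2 it was at -0.07 and -0.19 where RPL22 rose.

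Of the core proteins with other symbols, FAU fell with siSCD_1 in 501mel (by 0.53), and RACK1, listed under its older symbol GNB2L1, rose with siSCD_2 (0.36 ± 0.07 and 0.41 ± 0.07) and with SCDi in IGR37 (0.54 ± 0.07). FAU passed in neither line with siSCD_2. Reads of near-identical copies could be split between genes, so differences within these pairs are uncertain.

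**Figure D5:**
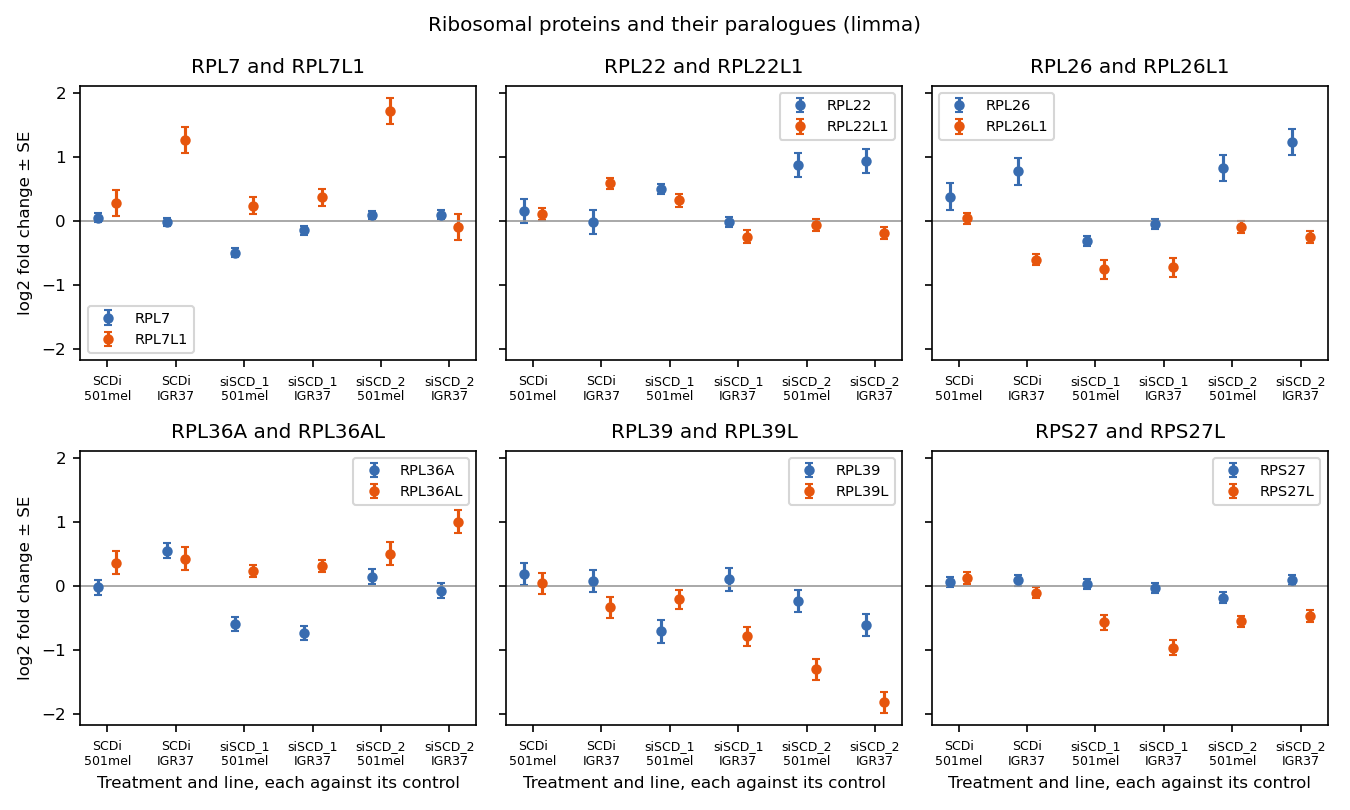
log2 fold change ± SE (y axis) of 6 members (blue) and their paralogues (orange) in the 6 treatment comparisons (x axis). RPL39L falls below RPL39 with siSCD_2, RPS27L lies below RPS27 with both siRNAs, and RPL7L1 lies above RPL7 with SCDi in IGR37 and siSCD_2 in 501mel.

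Other parts of the ribosomal protein pathway were read from gene lists. The counts below stand beside the shares of all genes that passed: outside SCDi in 501mel, 16.7 to 23.2% of all genes rose and 19.4 to 23.1% fell in each comparison. Of 20 other TOP mRNAs, which encode elongation factors, initiation factor subunits and similar proteins, 13 rose and 2 fell with siSCD_2 in 501mel and 15 rose and 1 fell in IGR37, with medians of 0.46 and 0.56 that resemble those of the members. TPT1 rose by 0.81 ± 0.07 and 0.85 ± 0.07 and EIF3L by 0.63 ± 0.08 and 0.63 ± 0.08. With SCDi 8 rose and 1 fell in IGR37 and 0 of 20 passed in 501mel. With siSCD_1, 5 rose and 7 fell in 501mel and 2 rose and 2 fell in IGR37. EIF3L fell by 0.70 in 501mel and EEF1A1, the main elongation factor, rose by 2.20 ± 0.23 in the same comparison (adjusted p = 1.36e-06). The measured level of EEF1A1 was low, at 4.53, 4.69 and 4.50 with siCTR_1 and 6.86, 6.62 and 6.84 with siSCD_1. The elongation factor EEF2 stood at 11.1, 11.0 and 11.0 in the same controls. Why EEF1A1 was so low was not tested, and its change may not stand for the whole message.

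Non-coding snoRNA host genes, some of which are known TOP transcripts, rose in 10 of 11 cases with SCDi in IGR37, with a median of 1.09, led by EPB41L4A-AS1 (2.63 ± 0.14) and SNHG5 (2.13 ± 0.13), and 1 fell. With siSCD_2, 7 of 11 rose in 501mel and 6 in IGR37, and 1 fell in each. With siSCD_1, 8 rose and 2 fell in 501mel, where most members fell, and 6 rose and 1 fell in IGR37. In that comparison in 501mel ZFAS1 rose by 1.58 ± 0.10 and SNHG16 fell by 1.24.

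Among 15 chaperones and assembly partners, GRWD1, which accompanies RPL3, fell in 5 of the 6 comparisons, with log2 changes of -1.32 and -0.97 with siSCD_1, -2.58 and -1.60 with siSCD_2 and -1.10 with SCDi in IGR37. TSR1, a small subunit assembly factor, fell by 0.89 with SCDi in IGR37, by 0.63 with siSCD_1 in IGR37 and by 0.38 with siSCD_2 in 501mel. The whole list fell in 3 and rose in 4 cases with siSCD_1 in 501mel, fell in 4 and rose in 0 in IGR37, fell in 5 and rose in 0 with siSCD_2 in 501mel, fell in 2 and rose in 4 in IGR37, and fell in 6 and rose in 1 with SCDi in IGR37. These are 13.3 to 40% falling and 0 to 26.7% rising, so with siSCD_1 in 501mel (20 and 26.7%) the list was near the share of all genes. The list medians ran from -0.31 to 0.01.

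Of 15 genes of mTORC1 and LARP1 control, EIF4EBP2, an inhibitor of the cap-binding protein EIF4E, fell with siSCD_2 by 1.30 and 1.53, with SCDi in IGR37 by 1.14 and with siSCD_1 in IGR37 by 0.62. TSC1, an inhibitor of mTORC1, rose with siSCD_2 by 1.18 ± 0.17 and 0.78 ± 0.17, and EIF4EBP1 rose with SCDi in IGR37 by 1.28 ± 0.15. In all, 7 fell and 0 rose with siSCD_1 in 501mel, 2 fell and 1 rose in IGR37, 5 fell and 2 rose with siSCD_2 in 501mel, 4 fell and 2 rose in IGR37, and 6 fell and 1 rose with SCDi in IGR37. The falls were 46.7% of the list with siSCD_1 in 501mel, against 22% of all genes, and 13.3 to 40% in the other 4, and the list medians ran from -0.28 to -0.01. With SCDi in 501mel 0 genes of these lists passed. The pigment cell markers fell in 4 and rose in 2 of 7 cases with siSCD_2 in 501mel, fell in 5 and rose in 2 in IGR37, fell in 6 and rose in 1 with siSCD_1 in 501mel, fell in 2 in IGR37 and fell in 6 with SCDi in IGR37. Of 4 measured fibroblast markers 3 fell with SCDi in IGR37, with a summed level of 16.3 to 17.8 CPM in DMSO and 3.74 to 5.89 CPM in SCDi libraries. The part of these markers in the ribosomal protein results was not tested.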

How the data were processed

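Total RNA from 36 libraries in 12 groups was profiled by QuantSeq Forward, which reads 1 tag near the 3′ end of each mRNA, so values do not depend on transcript length. The submitters' processing notes name STAR, edgeR and hg38, without versions; the counting step is not given in the sources used here. The authors deposited 2 tables of normalised log2 CPM (counts scaled to library size), made separately, so every test stayed within a table. With a prior count of 0.25, 100% of values came back as whole reads within 0.01 reads in both tables; shares of reads and depths come from these. Spike-ins (66 and 60) and 1 FLAG sequence were left out of the genes. No 2 libraries held identical values (0 pairs).

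Changes were fitted with limma 3.58.1 (R 4.3.3) with a variance trend on the deposited log2 values of all genes, over all libraries of a table (1 shared spread), with Benjamini-Hochberg adjustment over all genes of the table and a threshold of 0.05. The fit was tested on simulated data. Shares of reads were compared by exact permutation over libraries (scipy 1.17.1). Promoter words were searched in RefSeq sequences of GRCh38.p14, and snoRNA hosts and lengths come from GENCODE release 29. The members and gene lists were chosen with earlier results of these data known. Genes named were the stalk, 5S particle, ubiquitin fusion and other members listed by name, the 4 largest called rises and falls of each comparison, and the 2 largest called differences between lines each way. A planned edgeR test of counts was not run because the deposited unit is log2; limma voom on the recovered reads, and scaling to spike-in reads, were added after seeing the data. Other alternatives changed the trend, the libraries fitted, the filter, the pseudocount, the normalisation, the treatment of pseudogenes, the replicate block and the libraries left out. Some genes are counted but not reported by name here.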

Additional observations from a re-analysis of the deposited data

Results flagged for a closer look

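For 16 values of the members named above, the effect of a treatment differed between IGR37 and 501mel in limma's test of the difference itself (IGR37 minus 501mel, log2 ± SE, adjusted over all genes of the table). Among all genes, 12.3 and 15.3% (SCDi), 10 and 10.3% (siSCD_1) and 11.6 and 9.47% (siSCD_2) had a higher or lower effect in IGR37.

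With SCDi the effect in IGR37 was higher for RPL36A (0.57 ± 0.17, adjusted p = 0.0121), RPL12 (0.48 ± 0.10, adjusted p = 8.49e-04) and RPLP0 (0.33 ± 0.10, adjusted p = 0.0157). It was lower for RPL41 (-0.71 ± 0.23, adjusted p = 0.0236) and RPS15 (-0.45 ± 0.12, adjusted p = 0.00705).

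With siSCD_1 the fall was smaller in IGR37, or did not pass there, for RPS3 (0.87 ± 0.22, adjusted p = 0.0126), RPS29 (0.84 ± 0.13, adjusted p = 5.06e-04) and RPL5 (0.50 ± 0.08, adjusted p = 8.65e-04). The same held for the stalk proteins RPLP1 (0.49 ± 0.13, adjusted p = 0.0161), RPLP2 (0.34 ± 0.11, adjusted p = 0.0368) and RPLP0 (0.33 ± 0.09, adjusted p = 0.0189) and for RPS6 (0.32 ± 0.09, adjusted p = 0.0209). RPL22 (-0.52 ± 0.11, adjusted p = 0.00499) and RPL30 (-0.49 ± 0.09, adjusted p = 0.00163) rose in 501mel and had a lower effect in IGR37.

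With siSCD_2 the effect was lower in IGR37 for RPS3 (-0.82 ± 0.17, adjusted p = 0.00101) and RPL13 (-0.59 ± 0.15, adjusted p = 0.00569). RPS3 thus differed between the lines in both siRNA comparisons, in opposite directions. The siRNA cannot be told apart there from its control group and table. With siSCD_1 in IGR37, RPS3 lay above all controls only in library 2, the shallowest, and below them in libraries 1 and 3.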

How the results depend on the processing

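Of the counts and shares of members recomputed under another setting with all libraries, 190 stayed within 1.5 times, or within 1 SD, and 50 did not. Of single member values, 1291 kept their direction and side of the threshold, 82 lost significance, 20 gained it and 13 changed sign. Shallow libraries, among them those of 501mel with siSCD_1 and libraries 2 and 3 of IGR37 with siSCD_1, limit the precision for low members such as RPL36A. The cause of the changes below was not tested.

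Scaling to spike-in reads moved most. Members higher and lower became 2 and 0 for SCDi in 501mel, 4 and 1 in IGR37, 0 and 62 for siSCD_1 in 501mel, 0 and 42 in IGR37, 3 and 7 for siSCD_2 in 501mel and 9 and 6 in IGR37. For differences of effects they became 0 and 5 (SCDi), 5 and 0 (siSCD_1), and 0 lower (siSCD_2). Between lines, 2 were higher under DMSO, 7 higher and 21 lower under siCTR and 4 higher under siCTR_1. Signs turned for siSCD_1 in IGR37 in RPS4X (-0.00192) and RPL13A (-0.017), for siSCD_2 in 501mel in RPLP2 (-0.37), RPL5 (-0.15), RPS6 (-0.23) and RPSA (-0.073), and in IGR37 in RPLP0 (-0.20), RPLP2 (-0.24) and RPS6 (-0.12).

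Quantile normalisation gave 11 higher and 17 lower for siSCD_1 in 501mel, 6 higher in IGR37, 4 lower for siSCD_2 in IGR37, 5 higher and 12 lower differences for siSCD_1, 3 higher for siSCD_2, and 16 higher in IGR37 under siCTR_1. It turned RPLP1 (0.028) and RPL11 (0.092) with siSCD_1 in 501mel, RPLP0 (-0.044) with siSCD_2 in IGR37 and RPLP2 (0.030) between lines under siCTR_1.

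Centring on the median of all genes gave 4 lower for SCDi in IGR37, 2 higher SCDi differences and 5 higher under siCTR_1. Without a variance trend there were 1 lower (SCDi, IGR37), 0 higher (siSCD_1, IGR37), 1 lower SCDi difference and 8 higher siSCD_1 differences. Fitting only the libraries compared gave 4 lower (SCDi, IGR37), 0 higher (siSCD_1, IGR37), 0 lower (siSCD_2, IGR37), 8 higher and 7 lower SCDi differences and 3 lower siSCD_2 differences. Higher siSCD_2 differences were 1 with a stricter filter, 2 with a pseudocount of 1 CPM and 2 with limma voom, which also gave 5 higher for siSCD_1 and 2 lower for siSCD_2 in IGR37.

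Leaving out each library in turn gave 1 to 2 lower for SCDi in IGR37, 0 to 4 higher for siSCD_1 in IGR37, 0 to 1 lower for siSCD_2 in 501mel and 0 to 3 in IGR37. It gave 1 to 4 lower SCDi differences, 19 to 35 higher and 2 to 4 lower siSCD_1 differences, and 0 to 17 higher siSCD_2 differences. The single libraries behind these extremes were, for SCDi differences, 501mel DMSO 2 and SCDi 3 (1 lower each), for siSCD_1 in IGR37, siCTR_1 2 (0 higher) and siSCD_1 3 (4 higher, and 4 lower differences), for siSCD_2, 501mel siSCD_2 1 (1 lower), IGR37 siSCD_2 2 (3 lower, 17 higher differences) and 501mel siCTR 1 and siSCD_2 1 (2 higher differences each). Main rises and falls stayed at 18 to 26 (SCDi, IGR37), 54 to 58 (siSCD_1, 501mel), 53 to 60 (siSCD_2, 501mel) and 54 to 59 (siSCD_2, IGR37).

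Same-numbered libraries did not deviate together over all genes (0 of 17 correlations over 0.1, from -0.069 to 0.098). The numbers thus gave no sign of pairing, but such correlations cannot exclude that same-numbered libraries were made together. With the replicate block, fitted on the numbered libraries compared, 0 rose and 3 fell for siSCD_1 in IGR37, 32 rose for siSCD_2 in 501mel, and 0 rose and 0 fell for siSCD_2 in IGR37, where only 2 libraries a group could be used.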
